A study of Homo sapiens with 12 samples.

Results

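The comparison described here is the background of an anti-FLAG pull-down: poly(A) sites counted in RNA recovered with FLAG-tagged GFP (GFP IP), set against RNA of the lysate it came from (GFP input). Members were all sites of the pull-down table with a mean of at least 10 reads over the 4 GFP libraries, which gave 19462 of 640413 sites. Both groups came from HEK293T, a human embryonic kidney line, in its STAU1-knockout clone C8. That clone had been made with a double-nicking Cas9 strategy and transiently expressed FLAG-GFP, so GFP IP and GFP input share the missing STAU1, the foreign protein and the origin from a single clone. GFP IP and GFP input had 2 libraries each. The same table holds 2 libraries of a STAU1-FLAG pull-down (STAU1 IP) and 2 of its input (STAU1 input) from clone C8, which share no library with the GFP comparison, and a separate table holds cytoplasmic and polysomal RNA of clone C8 and of the isogenic control C9, with 1 library each. The labels do not say whether replicates were separate cultures, so the p-values reflect nothing beyond the spread of these libraries, which may be technical.

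An anti-FLAG pull-down recovers the tagged protein with the RNA it holds, and also RNA that stays with the beads, the antibody or abundant proteins. GFP is a jellyfish protein with no known RNA partners in human cells, and it is used so that RNA recovered for those other reasons can be measured. The 3'READS+ method sequences the stretch before the poly(A) tail, so each read marks the 3' end of a transcript isoform and a level does not scale with transcript length. Human cells end most messenger RNAs by cleavage and tailing at one of several sites in the last exon. Mitochondrial RNAs are cut from long transcripts of both strands of the mitochondrial genome and then receive short tails, and in intact cells they stay inside the organelle.

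Sites are given by chromosome, strand and position in hg19. A gene name was given to 204 nuclear members on chromosomes 9, 11, 18 and 19, and to 9 mitochondrial members. The nuclear names came from stretches where gene ends of the annotation at hand, of a later build, fell within 24 nt of member sites. Coordinates were not converted. On chromosome 19 the distance was 1 nt at EEF2 (3976055), but 10 nt at RPL36 (5691885) and 12 nt at INSR (7112277). Names in that farther part are less certain. All other nuclear members stay unnamed, and the level of the STAU1 transcript was not analysed here. The named set is therefore a sample set by build and position, and chromosome 19 alone gave 109 of the 204.

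GFP IP libraries were shallow, with 1291888 and 1245270 reads, against 7636541 and 8932299 reads in GFP input. One read was worth 0.774 and 0.803 CPM (a count scaled to its library total) in GFP IP, against 0.131 and 0.112 CPM in GFP input, before the TMM scaling that all other CPM values carry. Since the deeper inputs dominate the mean that chose the members, a site with few input reads entered only where the pull-down was high: 328 members had 0 reads in both GFP IP libraries and 1 member had 0 reads in both GFP inputs. Members held 91.8 ± 0.136% of GFP IP reads and 94.8 ± 0.0477% of GFP input reads (SD, n = 2 each). The 509 members with a mean of 10 to 10.25 reads had medians of 1.75 CPM in GFP IP and 2.41 CPM in GFP input, and the 274 sites just outside, at a mean of 9.75 reads, had 1.77 and 2.30 CPM. Across members, log2 CPM correlated with r = 0.85 between the GFP IP libraries and r = 0.896 between the GFP inputs, a description over 19462 sites that are not independent.

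Of the 19462 members 19394 passed the filter on low counts and were tested. GFP IP was higher than GFP input at 659 of them (3.40%), against 2.11% of all 33744 tested sites, and lower at 1348 (6.95%), against 3.99% of all tested sites (adjusted p under 0.05 by the quasi-likelihood test of edgeR, Benjamini-Hochberg method). Of the 14350 tested sites that were not members 52 were higher and 0 lower. By the member rule such sites had few input reads, so a lower call was hardly possible there. The lack of lower calls outside the members, and their larger share among members than among all tested sites, thus follow largely from that rule. Changes of at least 2-fold made up 563 of the higher and 1159 of the lower calls. The middle of the distribution lay at a log2 change of -0.40 (GFP IP over GFP input), with quartiles of -1.18 and 0.34.

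The split between gains and losses depended on the scaling. TMM put 32.8% of the calls on the higher side, RLE size factors 45.1%, DESeq2 46.3% and library totals 60.2% (1135 higher and 751 lower). The median of all members was -0.40 with TMM and -0.089 with library totals, a shift of the whole scale, so classes are described below by their distance from the median of all members as well. Counts also rested on single libraries. They were 363 higher and 787 lower without GFP IP 1, 289 and 1280 without GFP IP 2, 303 and 1331 without GFP input 1, and 539 and 1162 without GFP input 2. Without STAU1 input 1 or 2 lower calls numbered 2192 and 2124, in fits where the filter, the scaling and the shared estimate of the spread all changed (median of the members -0.53 and -0.52).

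Called shares differed most by abundance. Members under 4 CPM had 0 higher (2 at an unadjusted p under 0.05 and 0 by DESeq2) and 10 lower calls among 5499 tested, with a median log2 change of -0.87, a class in which a single GFP IP read is a large step. From 4 CPM upward the medians were close together: -0.21 at 4 to 16 CPM, -0.24 at 16 to 64 CPM, -0.25 in the next class, up to 4 times 64 CPM, and -0.32 in the top class. Called shares, which follow read depth, climbed through the same classes. Higher calls were 1.39%, 6.93%, 11.7% and 16.3% of the tested members, and lower calls 2.50%, 13.5%, 25.4% and 37.1%. Fitted changes past 2-fold did not climb: 15.0%, 10.7%, 8.35% and 8.82% of the tested members were over 2-fold higher, and 24.7%, 21.1%, 19.0% and 23.1% over 2-fold lower. The top class held 533 members, 87 of them higher and 198 lower. The most abundant 10 sites took 11.9 ± 0.047% of GFP IP reads and 13.9 ± 0.36% of GFP input reads, and the top 100 took 31.3 ± 0.0686% and 37.3 ± 0.826% (SD, n = 2 each).

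**Figure D1:**
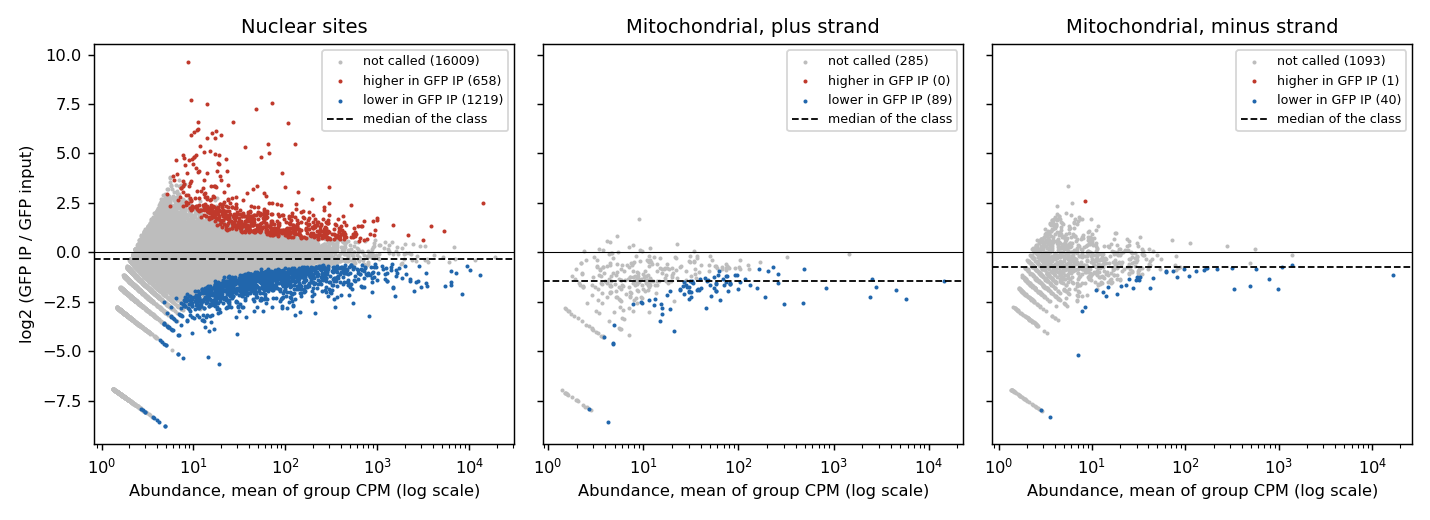
Log2 change of GFP IP over GFP input (vertical axis) against abundance in CPM (log axis) for each tested member, in 3 panels for nuclear, mitochondrial plus-strand and mitochondrial minus-strand sites. Dashed lines are the class medians (-0.35, -1.46 and -0.74); the detached band near the bottom holds sites with 0 reads in both GFP IP libraries, whose fitted change depends on the prior count.

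The most abundant nuclear member in GFP IP was the site at position 73040495 of chromosome X (minus strand). It had 24287 and 23844 CPM in GFP IP, against 4532 and 4002 CPM in GFP input, and took 2.72% and 2.63% of all GFP IP reads. The libraries did not overlap, the log2 change was 2.50 ± 0.14 (SE; adjusted p = 1.97e-08), and no other site was more abundant in either GFP IP library. STAU1 IP held this site at 10105 ± 325 CPM and STAU1 input at 3637 ± 253 CPM (SD, n = 2 each). The gain over input was 1.47 ± 0.14 there, smaller than with GFP by a log2 difference of -1.02 ± 0.19 (adjusted p = 0.0141). Over all tested sites the test of that difference called 0.157% lower and 0.53% higher with STAU1.

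Of the other 7 most abundant nuclear members 5 were lower in GFP IP and 2 were not called. EEF2, the elongation factor that moves the ribosome along the messenger, ended at position 3976055 of chromosome 19 (minus strand) with 17111 and 18008 CPM in GFP IP, against 19853 and 21741 CPM in GFP input, and was not called (log2 -0.24 ± 0.13; adjusted p = 0.386). The largest loss of the group was at position 81571885 of chromosome 5 (minus strand), with 2942 and 3337 CPM in GFP IP, against 14622 and 12483 CPM in GFP input (log2 -2.11 ± 0.15; adjusted p = 2.61e-07). Smaller losses were called on chromosome 19, at 8387278 on the plus strand (log2 -1.12) and at 39923865 on the minus strand (-1.07), and at position 49249104 of chromosome 17 (plus strand) (-0.88). At position 71492463 of chromosome X (minus strand) the log2 change was -0.68, with an adjusted p of 0.174 without GFP IP 1 and of 0.0854 with library totals (-0.37). The site at position 146015155 of chromosome 8 (minus strand) was not called (-0.39 ± 0.14; adjusted p = 0.119).

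Mitochondrial RNA was the class with the largest loss. Mitochondrial sites took 5.46% and 5.68% of the reads in GFP IP, against 10.6% and 10.1% in GFP input, a ratio of the means of 0.538. Plus-strand sites accounted for 2.58 ± 0.148% in GFP IP and 6.06 ± 0.244% in GFP input, and minus-strand sites for 2.99 ± 0.00452% and 4.31 ± 0.599% (SD, n = 2 each). Groups did not overlap for either strand, and 2 libraries against 2 cannot give an exact two-sided permutation p under 0.333. In bulk RNA, fewer organelles in the pull-down and less RNA of each cannot be told apart.

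Site by site, more members were lower on the plus strand. Of 374 tested plus-strand members, which carry most mitochondrial genes, 89 were lower (23.8%) and 0 higher (1 at an unadjusted p under 0.05 and 0 by DESeq2), with a median log2 change of -1.46, or -1.06 from the median of all members. The 1134 minus-strand members had 40 lower (3.53%) and 1 higher, with a median of -0.74, or -0.34 from the same point. Over all members 6.95% were lower and 3.40% higher, so the minus strand had a smaller share of lower calls than that. Among members of at least 16 CPM, 73 of 136 plus-strand (53.7%) and 31 of 140 minus-strand sites (22.1%) were lower, with medians of -1.28 and -0.62. In that range 18.7% of all members were lower. Both medians stayed negative with RLE size factors (-1.30 and -0.59) and with library totals (-1.15 and -0.43). They lay at -2.09 and -1.04 without GFP IP 2.

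Mitochondrial gene ends were reached by 9 members, and 8 of these were lower. MT-ND3, a subunit of respiratory complex I, had 137 and 141 CPM in GFP IP, against 929 and 723 CPM in GFP input (log2 -2.57 ± 0.24; adjusted p = 3.25e-06). MT-RNR2, the large ribosomal RNA of the organelle, had 1341 and 2430 CPM in GFP IP, against 8057 and 11476 CPM in GFP input (-2.37 ± 0.24). MT-CYB, the cytochrome b of complex III, had 653 and 998 CPM in GFP IP, against 2960 and 5045 CPM in GFP input (-2.28 ± 0.23). All of these libraries were separated by group, by wide margins.

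The other called ends changed less. MT-ND4, MT-ND2 and MT-ATP6, subunits of complex I and of the ATP synthase, changed by -1.89 ± 0.20, -1.78 ± 0.20 and -1.74 ± 0.20 on the log2 scale. MT-CO3, a subunit of cytochrome oxidase and the most abundant plus-strand member, had 8594 and 7155 CPM in GFP IP, against 23009 and 19498 CPM in GFP input (-1.43 ± 0.14). The small ribosomal RNA MT-RNR1 changed least, with 178 and 170 CPM in GFP IP, against 320 and 259 CPM in GFP input (-0.74 ± 0.20; adjusted p = 0.0280). Its call did not hold with RLE size factors, library totals, the 4 GFP libraries alone or the members alone, nor without GFP IP 1 (-0.84; adjusted p = 0.193), GFP IP 2 (-0.88; adjusted p = 0.171) or GFP input 1 (-0.72; adjusted p = 0.145). MT-ND4L, whose end had 2.07 and 10.9 CPM in GFP IP, against 31.4 and 39.7 CPM in GFP input, missed the threshold (-2.46 ± 0.80; adjusted p = 0.0838). The 8 called ends, all from one precursor strand, thus ran between -2.57 and -0.74; differences between ends were not tested.

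**Figure D2:**
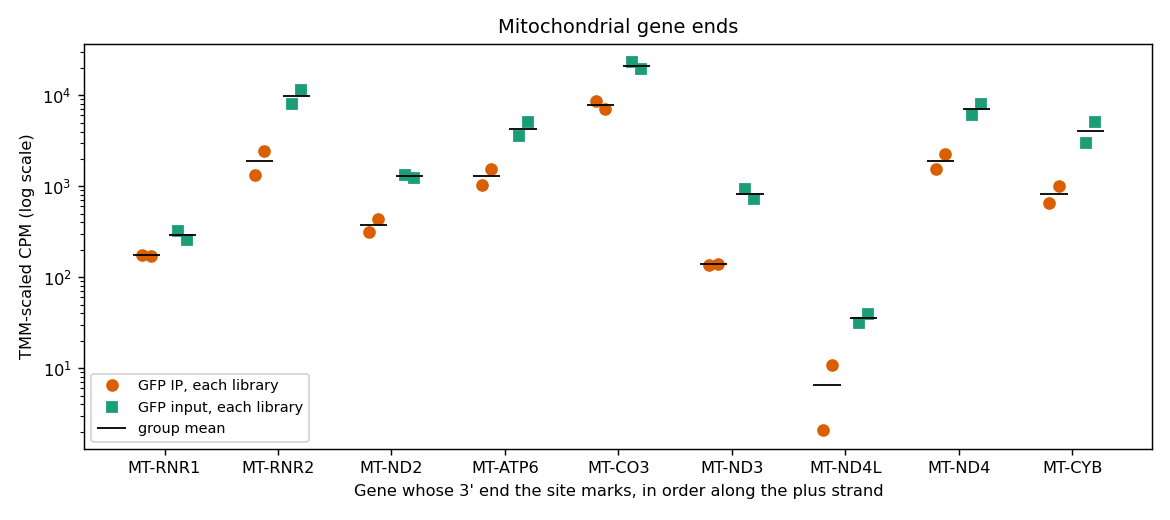
CPM (log axis) at the 9 mitochondrial gene ends in each GFP IP library (circles) and each GFP input library (squares), with group means as bars, in order along the plus strand. At every end both GFP IP libraries lie under both GFP input libraries, with the widest separation at MT-ND3 and the narrowest at MT-RNR1.

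Abundant mitochondrial members that mark no gene end behaved variously. At position 219 of the minus strand, the member with the most reads in GFP input 1, GFP IP held 10253 and 10729 CPM, against 25303 and 20931 CPM in GFP input (log2 -1.14 ± 0.14; adjusted p = 3.39e-05). Position 360 on the same strand had 1295 and 1340 CPM in GFP IP, against 1485 and 1372 CPM in GFP input, and was not called (-0.12 ± 0.16; adjusted p = 0.793). Position 14744 was lower (-0.66 ± 0.16; adjusted p = 0.0186), with an adjusted p of 0.211 without GFP IP 1 and 0.0743 without GFP IP 2. Its call also ended with RLE size factors (adjusted p = 0.0602), library totals (-0.36; 0.246), the 4 GFP libraries alone (0.0665) and the members alone (0.0738). At 5900 on the plus strand GFP IP held 1374 and 1490 CPM, against 3042 and 4229 CPM in GFP input (-1.34 ± 0.17), and STAU1 IP was instead above its input there (0.94 ± 0.17), a log2 difference of 2.29 ± 0.24 (adjusted p = 0.000236).

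Medians of the nuclear chromosomes lay close together. The highest medians were on chromosomes 19 (-0.11), 22 (-0.15) and 16 (-0.17), and the lowest on chromosomes 13 (-0.56), 6 (-0.50) and 2 (-0.47), against -0.40 over all members. In both GFP IP libraries chromosomes 19, 22 and 16 lay above, and 6 and 2 below, the median of all members. The median of chromosome 13 was -0.393 in GFP IP 1 and -0.585 in GFP IP 2, against -0.386 and -0.335 over all members. It thus also lay below in both, but only just in GFP IP 1. Every one of the 23 chromosomes (1 to 22 and X) had a negative median in each GFP IP library with TMM. With library totals, chromosome 19 stood at 0.20 and chromosome 13 at -0.26.

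Higher calls varied more between chromosomes than lower calls. On chromosome 19, 97 of 1149 tested members were higher (8.44%) and 89 lower (7.75%), with TMM the only chromosome with more higher than lower calls. With RLE size factors chromosomes 7 (52 higher and 39 lower), 16 (66 and 44) and 22 (42 and 32), among others, also had more higher calls, and with library totals most did. Chromosome 13 had 3 higher and 24 lower among 307. Across the 23 chromosomes the higher share ran between 0.977% and 8.44% and the lower share between 4.73% and 8.25%. Chromosome 19 members were also more abundant, with a median of 13.1 CPM against 7.46 CPM over all members. Among members of at least 16 CPM chromosome 19 again lay above chromosome 13, with a median of -0.03 and 85 higher against 86 lower of 521 on chromosome 19, and -0.42 with 2 higher and 17 lower of 73 on chromosome 13. In that abundance range the share of higher calls over all members was 9.03%, and of lower calls 18.7%.

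**Figure D3:**
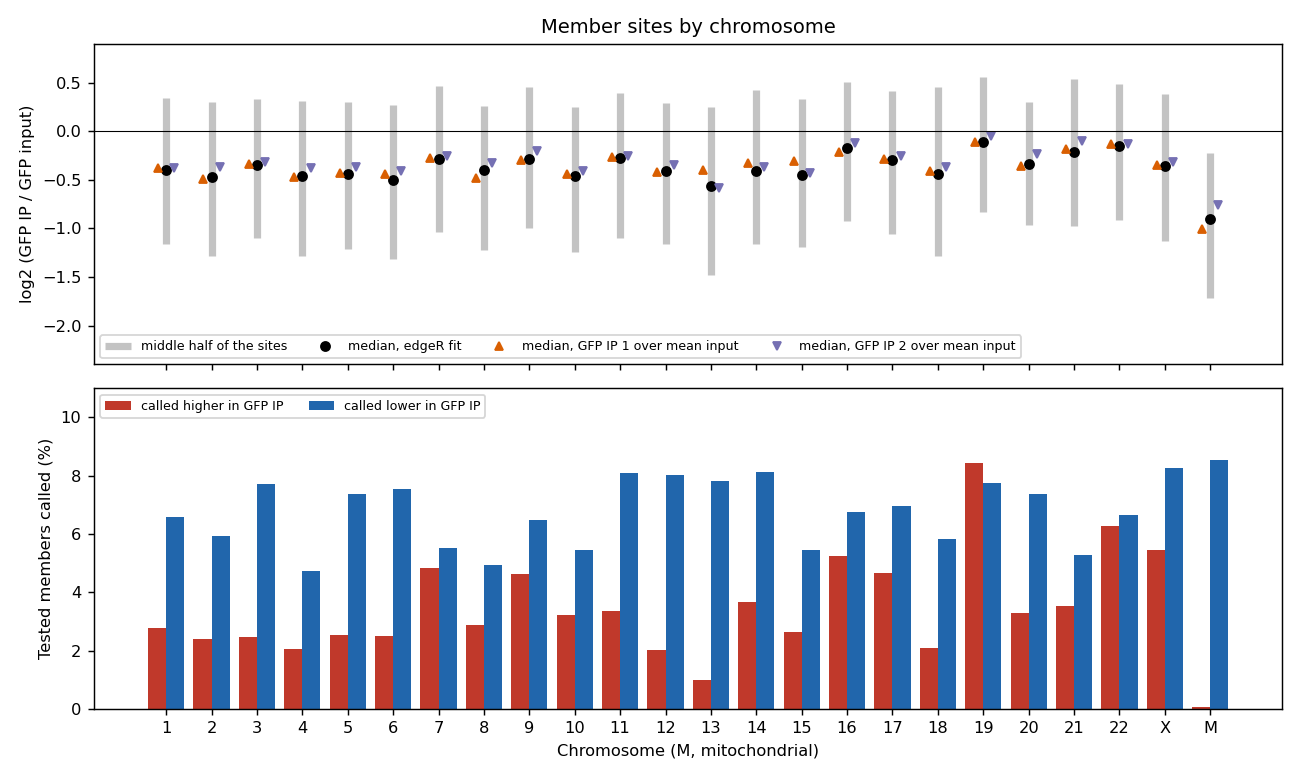
Upper panel, median log2 change of GFP IP over GFP input by chromosome (black, edgeR fit; triangles, each GFP IP library over the mean input; grey, from the lower to the upper quartile of sites). Lower panel, percent of tested members called higher and lower; chromosome 19 has 8.44% higher and 7.75% lower, and the mitochondrial chromosome 0.0663% and 8.55%.

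Nuclear sites of both strands had like values. The 9160 plus-strand members had 357 higher and 621 lower calls with a median of -0.33, and the 8726 minus-strand members 301 higher and 598 lower with a median of -0.37. Plus-strand sites took 48.9 ± 0.262% of nuclear reads in GFP IP and 49.0 ± 0.0393% in GFP input (SD, n = 2 each). Position within a run of neighbouring sites on a strand, joined over gaps of at most 5000 nt, moved the median slightly: -0.28 for sites alone in their run, -0.41 for the most proximal, -0.44 for middle and -0.40 for the most distal sites. Sites alone in their run were higher in 398 of 8724 cases (4.56%), against 97 of 3596 most proximal (2.70%) and 109 of 3601 most distal sites (3.03%). The unplaced contig GL000220, which carries ribosomal DNA, had 12 members with a median of 0.94 and 1 higher call. Its whole share of reads was 0.0307 ± 0.00271% in GFP IP and 0.0127 ± 0.00256% in GFP input (SD, n = 2 each).

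Among the 204 named nuclear gene ends, 24 were higher (11.8%, against 3.40% of all members) and 14 lower (6.86%, against 6.95%), with a median log2 change of -0.12. Chromosome 19 gave 20 of the 24 and 4 of the 14, from 109 ends with a median of 0.07. Chromosome 9 gave 3 higher and 6 lower of 54 (median -0.47), chromosome 11 gave 0 and 2 of 21 (-0.12), and chromosome 18 gave 1 and 2 of 20 (-0.46). The named ends had a median abundance of 21.0 CPM, against 7.46 CPM over all members. In the stretches used for naming, 112 members at annotated gene ends reached 16 CPM, 22 of them higher (19.6%) and 11 lower (9.82%). In all members of at least 16 CPM the shares were 9.03% higher and 18.7% lower. A further 207 tested members of those stretches lay inside genes on their strand, 7 of them higher (3.38%) and 14 lower (6.76%), shares close to those of all members. At 16 CPM or more, 5 of 70 such sites were higher (7.14%) and 14 lower (20.0%).

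Several gene ends had large gains. PIP5K1C, a kinase that makes the membrane lipid PI(4,5)P2, had 36.6 and 51.0 CPM in GFP IP, against 3.41 and 4.75 CPM in GFP input, at position 3630182 of chromosome 19 (minus strand) (log2 3.41 ± 0.43; adjusted p = 5.30e-05). SBNO2, a transcriptional coregulator, had 23.5 and 32.8 CPM in GFP IP, against 2.56 and 2.95 CPM in GFP input (3.34 ± 0.53; adjusted p = 0.000544). ANKRD24 had 104 CPM in both GFP IP libraries, against 8.10 and 17.5 CPM in GFP input (3.02 ± 0.36; adjusted p = 3.24e-05). For each of these genes the groups were far apart, although PIP5K1C and SBNO2 rested on few input reads.

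Other gene ends were also higher. PIAS4, a ligase for the small modifier SUMO, had 207 and 230 CPM in GFP IP, against 35.8 and 45.6 CPM in GFP input (log2 2.42 ± 0.23; adjusted p = 3.25e-06). SHC2, an adaptor of receptor tyrosine kinases, had 445 and 422 CPM in GFP IP, against 79.8 and 99.3 CPM in GFP input (2.27 ± 0.24). ABCA7, a lipid transporter, had 218 and 206 CPM in GFP IP, against 43.9 and 48.8 CPM in GFP input (2.19 ± 0.25). Of the named ends on chromosome 9, MPDZ, a scaffold protein with many PDZ domains, had 88.5 and 70.7 CPM in GFP IP, against 15.2 and 24.8 CPM in GFP input (1.99 ± 0.33). GLDC, the decarboxylase of the glycine cleavage system, had 47.7 and 49.6 CPM in GFP IP, against 9.66 and 9.88 CPM in GFP input (2.31 ± 0.42; adjusted p = 0.00192, or 0.0829 with no filter on low counts).

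The site with the most reads among those higher and named was inside MBD3, a subunit of the NuRD chromatin remodelling complex, at position 1576678 of chromosome 19 (minus strand). It had 5681 and 5319 CPM in GFP IP, against 1995 and 2344 CPM in GFP input (log2 1.34 ± 0.16; adjusted p = 2.40e-05). A second MBD3 site, at 1576640, had 36.6 and 36.4 CPM in GFP IP, against 8.52 and 14.4 CPM in GFP input (1.67 ± 0.37), and lost its call without GFP input 1 (1.20; adjusted p = 0.170) and with no filter (1.23; adjusted p = 0.469). The annotated end of MBD3, at 1573595, had 11.1 and 15.3 CPM in GFP IP, against 6.25 and 6.16 CPM in GFP input, and was not called (1.08 ± 0.58; adjusted p = 0.372). The largest gain inside a gene was in BRD10, a bromodomain protein (log2 4.90 ± 0.81; adjusted p = 0.000745). It had 10.4 and 31.3 CPM in GFP IP, against 0.710 and 0.642 CPM in GFP input. These were 15 and 43 reads against 5 and 5, so BRD10 met the member rule only through GFP IP.

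Many smaller gains depended on the filter or on 1 library. MATK, a tyrosine kinase, had 549 and 502 CPM in GFP IP, against 239 and 304 CPM in GFP input (log2 0.95 ± 0.19; adjusted p = 0.00397), and its adjusted p was 0.108 without GFP IP 1, 0.121 without GFP IP 2 and 0.188 without GFP input 1, at log2 values of 0.81, 0.83 and 0.64. POLRMT, the mitochondrial RNA polymerase, had 243 and 235 CPM in GFP IP, against 120 and 140 CPM in GFP input (0.87 ± 0.20; adjusted p = 0.00950); its adjusted p lay at 0.232, 0.331 and 0.374 without the same libraries, at 0.77, 0.72 and 0.62. Over the 30 higher calls with a gene name, 22 were lost with no filter on low counts, MATK (adjusted p = 0.602) and POLRMT (1.0) among them, and 10 held without each GFP library in turn. The calls lost numbered 17 without GFP IP 1, 13 without GFP IP 2, 15 without GFP input 1 and 9 without GFP input 2. None turned in direction under any setting tried. PIP5K1C, which is also among the sites of largest change, is not counted in these 30 and stayed called under every planned setting.

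Among the lower sites called under every planned setting were those of RPS6, UQCR11 and MRPL54. RPS6, a protein of the small ribosomal subunit, had 1406 and 1880 CPM in GFP IP, against 5078 and 5424 CPM in GFP input, at 19376254 inside its gene on the minus strand of chromosome 9 (log2 -1.68 ± 0.18; adjusted p = 1.04e-05). UQCR11, a subunit of respiratory complex III, had 91.9 and 72.9 CPM in GFP IP, against 208 and 261 CPM in GFP input (-1.51 ± 0.24; adjusted p = 0.000470). MRPL54, of the mitochondrial ribosome, had 56.7 and 51.7 CPM in GFP IP, against 129 and 152 CPM in GFP input (-1.37 ± 0.24; adjusted p = 0.00111). These members are nuclear transcripts, unlike the mitochondrial ends above, and in each the GFP IP libraries lay below both inputs.

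Ribosomal proteins could be followed only in part. Members were named for 2 of 32 small-subunit genes (RPS6 and RPS15) and 2 of 48 large-subunit genes (RPL36 and RPLP2), with 1 of 3 sites lower in each list and 0 higher, and list medians of -0.88 and -0.38. RPL36 had 809 and 992 CPM in GFP IP, against 1484 and 1676 CPM in GFP input at 5691676 (log2 -0.81 ± 0.17; adjusted p = 0.00440), and an adjusted p of 0.141 without GFP IP 1 (-0.75) and 0.0609 with library totals (-0.50). RPLP2 had 379 and 488 CPM in GFP IP, against 607 and 451 CPM in GFP input, so its groups overlapped (-0.29 ± 0.19; adjusted p = 0.498). Lists of nuclear noncoding RNAs, secretory, glycolytic and cytoskeletal genes had 0 named members, and the list of 15 mitochondrially encoded genes is the one described above, with 8 of its 9 members lower and 0 higher.

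Further lower sites called under every planned setting lay at or in POLR2L, GRHPR and other genes of differing roles. POLR2L, a subunit shared by the nuclear RNA polymerases, had 25.6 and 19.7 CPM in GFP IP, against 87.8 and 72.1 CPM in GFP input (log2 -1.82 ± 0.34; adjusted p = 0.00212). GRHPR, an enzyme that reduces glyoxylate, had 81.6 and 78.7 CPM in GFP IP, against 239 and 221 CPM in GFP input (-1.52 ± 0.22). DCTN3, a subunit of dynactin, had 77.4 and 103 CPM in GFP IP, against 225 and 244 CPM in GFP input (-1.38 ± 0.22). RPP25L changed by -1.27, RNH1 (the ribonuclease inhibitor) by -1.23, LMNB2 (lamin B2 of the nuclear envelope) by -1.17 and STOML2 (of the inner mitochondrial membrane) by -1.08. In each the GFP IP libraries lay below both inputs.

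**Figure D4:**
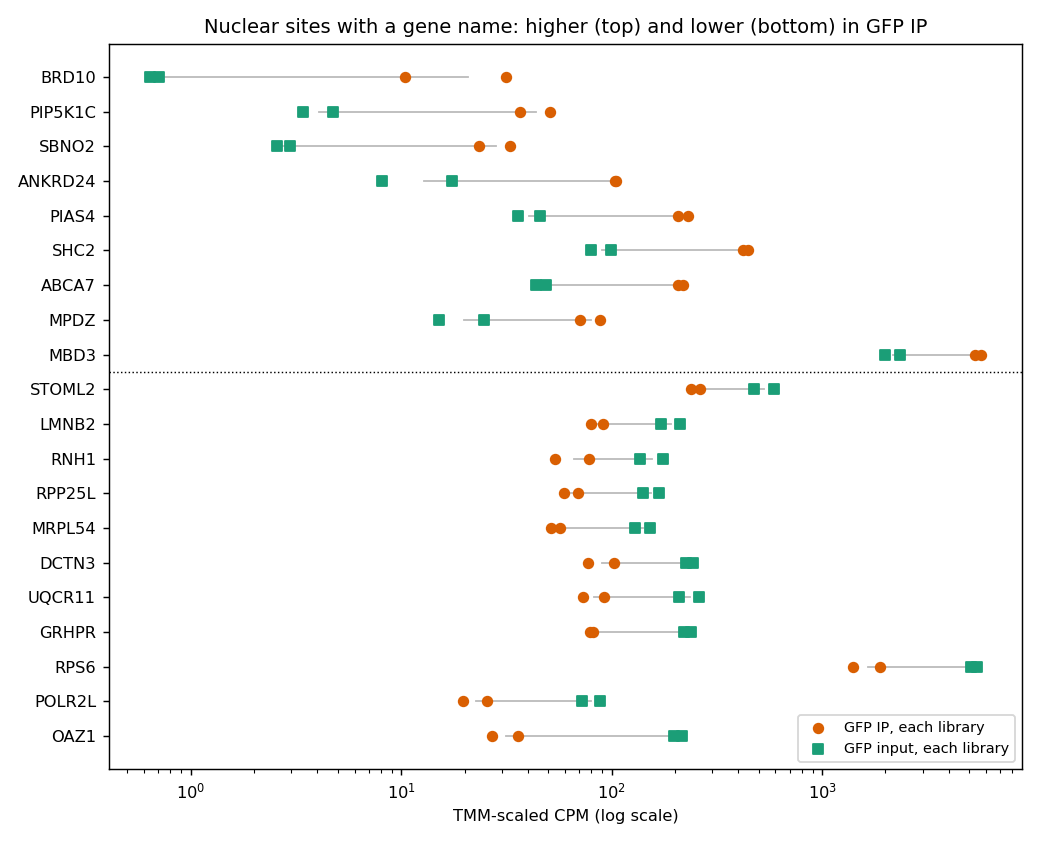
CPM (log axis) in each GFP IP library (circles) and each GFP input library (squares) for the 20 nuclear sites with a gene name that stayed called under every planned setting, 9 higher above the dotted line and 11 lower under it, ordered by log2 change (BRD10 at the top, 4.90; OAZ1 at the bottom, -2.73). Lines join the group means; no site has overlapping groups.

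Of the 27 lower calls with a nuclear gene name, 11 held without each GFP library in turn and 10 were lost by a change of scaling. Those lost numbered 15 without GFP IP 1, 5 without GFP IP 2, 1 without GFP input 1 and 4 without GFP input 2, with no change of direction. CDKN2A, a brake of the cell cycle, had the largest called loss of a named nuclear end, with 1.38 and 3.64 CPM in GFP IP, against 17.6 and 18.6 CPM in GFP input (log2 -2.85 ± 0.69; adjusted p = 0.0162), and an adjusted p of 0.191 without GFP IP 1 (-2.38). GPX4, an enzyme that reduces lipid peroxides, had 341 and 270 CPM in GFP IP, against 571 and 553 CPM in GFP input (-0.88 ± 0.18; adjusted p = 0.00542), with an adjusted p of 0.102 without GFP IP 2 (-0.90) and 0.0657 with library totals. Abundant ends with no call included NDUFS7 (-0.10 ± 0.19) and MICOS13 (-0.08 ± 0.20), both of complexes in the mitochondrial inner membrane, and the GTPase HRAS (-0.07 ± 0.19).

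Sites of a single gene could differ. In 275 genes with a named member, 90 had at least 2 members and 22 of those had a call, 0 of them in both directions. OAZ1, the antizyme that restrains polyamine synthesis, had 4 members on the plus strand of chromosome 19. At 2273323 it had 27.0 and 35.7 CPM in GFP IP, against 216 and 199 CPM in GFP input (log2 -2.73 ± 0.24; adjusted p = 1.95e-06). At its annotated end, 2273486, the values were 162 and 138 CPM in GFP IP, against 158 CPM in both GFP inputs (-0.07 ± 0.22; adjusted p = 0.923). GFP IP thus lay far below input at 2273323 and overlapped it at the annotated end. The most abundant of the 4, at 2273238, changed by -0.75 ± 0.21 (adjusted p = 0.0401). Its value was -0.55 without GFP IP 1 and -1.27 without GFP IP 2. That call ended with RLE size factors (adjusted p = 0.0878), library totals (-0.45; 0.258), the 4 GFP libraries alone (0.0817) and the members alone (0.109). The remaining member, at 2273264, changed by -0.85 ± 0.40 and was not called (adjusted p = 0.286).

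VCP, the AAA ATPase that extracts proteins from membranes and complexes, showed a like contrast. Its main site at position 35056561 of chromosome 9 (minus strand) had 1571 and 1428 CPM in GFP IP, against 890 and 1403 CPM in GFP input, and was not called (log2 0.39 ± 0.20; adjusted p = 0.352). The annotated end, with 1.38 and 10.2 CPM in GFP IP, against 24.9 and 24.8 CPM in GFP input, was lower (-2.11 ± 0.57; adjusted p = 0.0300), but at -1.35 with an adjusted p of 0.423 without GFP IP 1, at -4.32 without GFP IP 2, and at an adjusted p of 0.0696 with library totals. In PTBP1, a splicing regulator, the site at 812221 was lower (-1.02 ± 0.27; adjusted p = 0.0276) and the annotated end was not (-0.03 ± 0.24; adjusted p = 0.975); the first call was lost without GFP IP 1 (-1.03; adjusted p = 0.174), GFP IP 2 (-1.26; adjusted p = 0.0515) or GFP input 2 (-0.95; adjusted p = 0.0957), with library totals (-0.71; adjusted p = 0.127) and with the members alone (adjusted p = 0.0554). The difference between sites of a gene was not tested.

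The largest gains of all fell on sites almost empty in the input. Such sites became members only where GFP IP was high, so the member rule itself fixed the direction of change among them. Of 85 members with at most 20 reads in the 2 GFP inputs together, 44 were higher and 0 lower. A lower call was not possible there, so these counts say nothing about direction. Among the 12 named by the rule of largest change, the site at position 88666317 of chromosome 16 (minus strand) had 194 and 210 reads (134 and 153 CPM) in GFP IP, against 3 and 8 reads (0.426 and 1.03 CPM) in GFP input (log2 7.56 ± 0.94; adjusted p = 4.48e-05). The site at position 129783704 of chromosome 12 (minus strand) had 147 and 121 reads in GFP IP, against 7 and 2 in GFP input (7.23 ± 1.05). The site at position 3424141 of chromosome 4 (plus strand) had 312 and 279 reads in GFP IP, against 17 and 16 in GFP input (6.54 ± 0.74). Both GFP IP libraries carried these sites at levels that the much deeper inputs did not reach. At position 105609455 of chromosome 6 (minus strand), GFP IP had 35 and 15 reads and both inputs 0, so GFP IP was at least 86.8-fold higher, counting 3 reads over the 2 inputs (0.202 CPM).

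Altogether 47 members were higher by a fitted log2 change of at least 4, on 18 chromosomes, 27 of them on plus strands and 39 of them alone in their run. Their median distance to the next member on the strand was 82100 nt, against 2960 nt for all tested members, and 13 of the 47 matched a site of the fraction table, against 18771 of 19394 tested members. Of those 19394, 9534 were on plus strands and 8724 counted as alone in their run.

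The STAU1 libraries also carried these 47 sites, unevenly. Their median was 30.4 and 24.1 CPM in GFP IP 1 and 2, 0.71 and 0.77 CPM in GFP input, 2.78 and 9.56 CPM in STAU1 IP, and 5.20 and 1.48 CPM in STAU1 input. In 34 of the 47, STAU1 input 1 was over 2-fold above STAU1 input 2, against 1757 of all 19394 tested members. In 29, STAU1 IP 2 was over 2-fold above STAU1 IP 1, against 3094 of all tested members. Both held at 28, against 479 of all tested members. The reverse of the first pattern was seen at 4 of the 47 and at 4895 of all tested members. That of the second was seen at 4 and at 2294. Among the 153 members higher by 2 to 4 on the log2 scale both held at 2, and among the 459 under 2 at 0. Whether libraries of the GFP and STAU1 groups hold some RNA or reads of one another was not tested, and the sizes of these largest gains carry that limit.

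**Figure D5:**
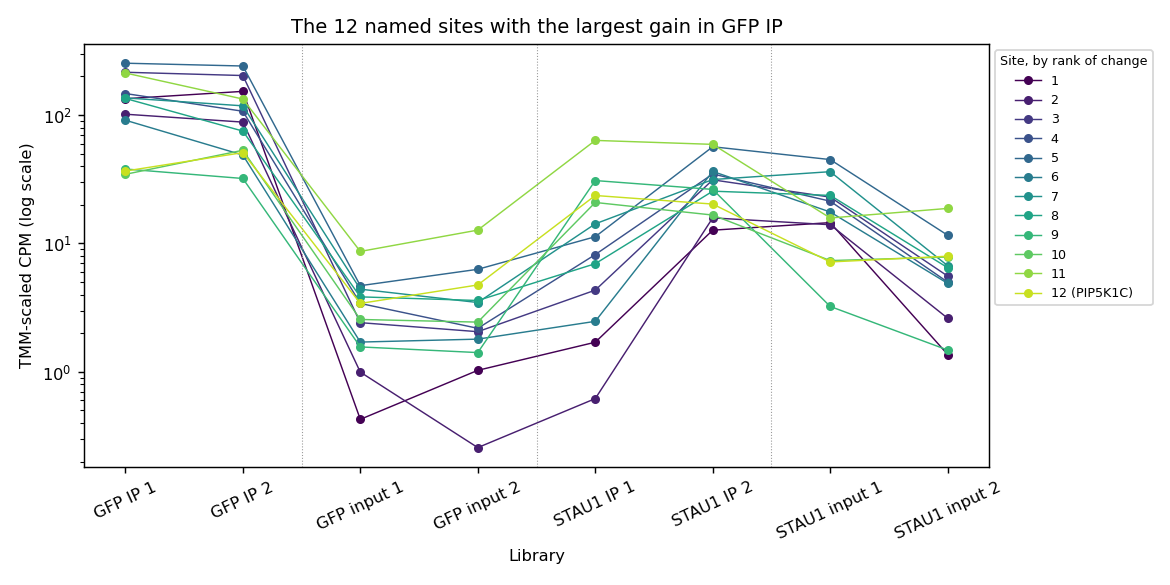
CPM (log axis) of the 12 named sites with the largest gain in GFP IP, across all 8 pull-down and input libraries, each line 1 site numbered by the size of its change (1 at 7.56, 12 at 3.41). All sites are high in both GFP IP libraries and low in both GFP inputs, 8 of 12 are higher in STAU1 IP 2 than in STAU1 IP 1, and 9 of 12 in STAU1 input 1 than in STAU1 input 2.

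The largest losses were of another kind. The abundant site at position 18794290 of chromosome 16 (minus strand) had 145 and 167 CPM in GFP IP, against 1281 and 1660 CPM in GFP input (log2 -3.24 ± 0.21; adjusted p = 9.63e-08). At position 60713668 of chromosome 15 (minus strand) each GFP IP library had 1 read, against 245 and 302 reads in GFP input (-5.65 ± 0.71; adjusted p = 5.10e-05). At position 83845398 of chromosome 16 (plus strand) there were 3 and 6 reads in GFP IP, against 442 and 398 in GFP input (-4.14 ± 0.46). These sites were well covered in the inputs, and no library of one group reached the other.

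Some losses rested on counts of 0. Of the 328 members with 0 reads in both GFP IP libraries, 312 were tested and 14 called lower, 4 of them mitochondrial; their bounds, from 3 reads over the 2 GFP IP libraries (1.06 CPM), ran between at least 5.07-fold and at least 9.21-fold lower. Such sites made up 14 of the 32 members called lower with a fitted log2 change of -4 or less. At the depth of GFP IP, a loss could not be detected at most members with few reads. The 32 lay close to other members, at a median of 1410 nt, and 30 of them matched a site of the fraction table. The value at position 82352479 of chromosome 5 (minus strand) was -3.88, and -10.63 without GFP IP 1, where no read remained; that at position 60158981 of chromosome 10 (plus strand) was -3.29, and -5.28 without GFP IP 2.

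The same sites can be read in the STAU1 pull-down, which shares no library with these. Of the 659 members higher in GFP IP, 227 were also higher in STAU1 IP and 1 was lower (background 3.06% higher and 2.99% lower of all tested sites), with a median log2 change of 0.74. Of the 1348 lower in GFP IP, 550 were also lower in STAU1 IP and 27 were higher, with a median of -0.86. That background spans all abundances, while called members were more abundant than most. Among nuclear members of at least 16 CPM, 207 of 551 higher in GFP IP were higher in STAU1 IP and 1 lower. Of 1039 lower in GFP IP, 24 were higher and 441 lower in STAU1 IP. Of 4233 not called in GFP IP, 405 were higher and 215 lower in STAU1 IP. Of the named gains, PIAS4 had 1.77 and ABCA7 1.27 in the STAU1 pull-down, and GLDC had -0.09. Of the named losses, RPS6 had -1.12 and RNH1 -0.30.

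Nuclear members of at least 16 CPM were also set beside the fractions, which have no replicates. The log2 ratio of polysome over cytoplasm in clone C8 had a median of -0.08 over 391 members higher in GFP IP (each with at least 20 reads in the libraries compared), 0.28 over 1018 lower and 0.11 over 3830 not called. In the control C9 the medians were -0.28, 0.44 and 0.14, over 343, 1009 and 3638 members. A match in the fraction table existed for 94.4% of the higher, 99.9% of the lower and 99.6% of the uncalled members in this range. In the same order, 58.6%, 49.7% and 50.3% were alone in their run.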

How the data were processed

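Poly(A) sites were counted by the authors: the submitters' processing notes name STAR and hg19 (the sources used here give no version), and raw read counts per site were deposited, one column per library, with no other normalization. The rule by which reads were grouped into sites is unknown here. Coordinates are those of hg19 (highest mitochondrial position 16571). Members, gene lists and classes were chosen with earlier results of these data known.

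Deposited counts entered the quasi-likelihood model of edgeR (version 4.0.16, under R 4.3.3; 4 groups over 8 libraries, TMM, filterByExpr by group, 4 residual degrees of freedom), with Benjamini-Hochberg adjustment over 33744 tested sites and a threshold of 0.05; adjusted p-values in the text are from this fit and errors of log2 changes are SE. CPM values are TMM-scaled unless said otherwise. Per-library class medians add 0.5 reads. Alternatives were RLE size factors, library totals, DESeq2 1.42.0, the 4 GFP libraries alone, no filter, members alone, members of at least 30 reads or 2 CPM, a replicate block and each library left out. Depth limits precision: 1 read in GFP IP is worth 0.774 to 0.803 CPM before scaling, and reads copied by PCR are not independent molecules, so bounds from 3 reads cover counting error only.

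Gene ends of GRCh38.p14 (RefSeq) served for names, without converting coordinates. A member was named where it lay within 24 nt of 1 gene end on its strand and at least 5 of the 10 nearest ends that had a member within 2000 nt were also within 24 nt. Of 907 such ends 218 were within 24 nt and 204 passed. Mitochondrial names needed a distance of at most 2 nt. Overlapping genes share sites, so a name is a position, not a proof of origin. Named sites are the 12 largest and 12 smallest log2 changes among called members whose average log2 CPM reached 4 and whose direction matched in replicates 1 and 2, the 8 nuclear, 5 mitochondrial plus-strand and 3 mitochondrial minus-strand members of highest CPM, and members with a gene name. Gene names had been planned from an annotation of hg19. Naming by unconverted coordinates of the later build replaced this. The genes described singly were picked among the named ones after their values were seen. No sequences are shown, since no genome of the files' build was used here.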

Additional observations from a re-analysis of the deposited data

Results flagged for a closer look

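The results below were singled out because the change over input differed between the GFP and the STAU1 pull-down, by edgeR's test of the difference itself (STAU1 change minus GFP change, log2, adjusted p under 0.05). STAU1 IP and STAU1 input had 2 libraries each and share none with GFP. Unnamed sites chosen for a large GFP change lean to the opposite sign by that choice, since the GFP change is subtracted. No explanation was tested.

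Among unnamed sites high in the GFP pull-down, the difference was -7.65 at 88666317 on chromosome 16, -7.21 at 129783704 on chromosome 12, -6.19 at 3424141 on chromosome 4, -5.21 at 99155411 on chromosome 9, -4.90 at 54644894 on chromosome 17, -4.77 at 18904459 on chromosome 19 and -4.69 at 73329150 on chromosome 7. At these 7 sites STAU1 input 1 exceeded STAU1 input 2 and STAU1 IP 2 exceeded STAU1 IP 1, so the STAU1 replicates lie far apart there. Differences with even STAU1 replicates were -2.82 at 41382431 on chromosome 17, -2.19 at 71614710 on chromosome 11 and -1.02 at 73040495 on chromosome X. ANKRD24 differed by -2.18, with a log2 change of 0.85 with STAU1 and 3.02 with GFP.

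In the other direction the difference was 4.38 at 121331316 on chromosome 10, where GFP IP held 1 read in each library, and 2.29 at 5900 of the mitochondrial plus strand. Named sites lower with GFP were OAZ1 at 2273323 (2.17), LMNB2 (1.75) and PTBP1 (1.74), and in each the STAU1 change was not called. UBE2R2, a ubiquitin-conjugating enzyme, was higher with both, by 4.15 with STAU1 and 1.20 with GFP (0.89 without GFP IP 1, adjusted p = 0.318, and 0.86 without GFP input 1, adjusted p = 0.205), a difference of 2.95 at 33834911 on chromosome 9. Sites not called with GFP and higher with STAU1 were PHF24 (difference 2.61), C19orf25 at 1473203 (2.29) and at 1474171 (1.51), R3HDM4 (1.62) and NCLN (1.35).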

How the results depend on the processing

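The 659 higher and 1348 lower calls became 1135 and 751 with library totals; higher calls numbered 1007 with the 4 GFP libraries only, 190 with no filter, 1102 with the fit on the members only and 1154 with DESeq2. Leaving out 1 GFP library gave 289 to 539 higher and 787 to 1331 lower; leaving out a STAU1 library, added after seeing the data, gave 616 to 726 and 1749 to 2192. All 659 higher calls remained under RLE scaling and under library totals, and 189 with no filter. The first 2 settings move the whole scale upward, so a higher call could hardly be lost there. With no filter the median of the members moved down, to -0.84.

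The median log2 change of all members (-0.40) was -0.24 with RLE size factors, -0.089 with library totals, -0.23 with the 4 GFP libraries and -0.24 with DESeq2, and, over the same 19394 members, lay between -0.63 and -0.40 with 1 GFP library left out. For mitochondrial minus-strand members (-0.74) it was -0.59, -0.43, -0.53 and -0.59, and between -1.04 and -0.75 with 1 GFP library left out; for plus-strand members it lay between -2.09 and -1.30 with 1 left out. The mitochondrial share ratio lay between 0.525 and 0.551. With the 328 sites of 0 GFP IP reads at their bound, plus-strand members had -1.45.

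No called named site turned in direction. Of 61 calls with a gene name and not among the named sites, 22 held in every planned setting, and of 37 named sites 35 did. Same-numbered libraries of different groups did not deviate together over the 33744 tested sites (correlations between -0.0213 and 0.021). Sites with few reads weigh as much as others there, so this cannot decide whether the numbers pair libraries. A replicate block gave 777 higher and 1605 lower. Depth of GFP IP limits losses at sites with few reads.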
